A study of Rattus norvegicus with 3 samples.

Results

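The genes described here encode 3 neurotrophins (Bdnf, Ntf3 and Ntf4) and 4 of the receptors that bind neurotrophins or their precursors (Ntrk2, Ntrk3, Ngfr and Sort1). They were chosen by name for their role in recovery after cortical ischemia; the choice used no measured value as a criterion but was made with earlier results of these data known. All 7 matched exactly 1 row each of the 30957 genes in the deposited files. Messenger RNA was sequenced from the motor cortex of 3 male Sprague-Dawley rats, numbered 12, 24-4 and 33. Every animal had undergone cerebral ischemia with reperfusion, in which brain blood flow is interrupted and then restored, and had then received electroacupuncture, electrical stimulation through needles, at GB20 (the Fengchi points). The labels state a time of 8 weeks without its starting point and give no age. They form 1 group, and neither sham-operated nor unstimulated animals were analysed here, so levels and their variation among treated animals can be described, and no effect of ischemia or of treatment.

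Neurotrophins are secreted proteins that sustain neurons and strengthen synapses, and each is made as a longer proneurotrophin that proteases cut to the mature form. Mature BDNF and neurotrophin-4 act mainly through the receptor tyrosine kinase TrkB (encoded by Ntrk2), and neurotrophin-3 mainly through TrkC (Ntrk3). The p75 receptor (Ngfr) binds all neurotrophins and, paired with sortilin (Sort1), binds proneurotrophins with high affinity. In adult cortex Bdnf is made largely by excitatory neurons, in part in response to activity, and TrkB is present in neurons and, as a truncated form without the kinase domain, in astrocytes.

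Bdnf is transcribed from several alternative starts, all joined to the same coding exon, and the deposited value is a sum per gene that does not separate them. The RefSeq promoter table (build GRCr8, used here only for sequence) held 11 windows for 4 of the 7 genes: 6 for Bdnf, 3 for Ntf3, 1 for Ntf4 and 1 for Sort1. In the 250 bases before each start, the palindromic cAMP response element TGACGTCA, its core CGTCA (or TGACG on the other strand), which is part of the palindrome, and the E-box CACGTG were searched on both strands. Among 33469 windows, 1.59% held the palindrome, 18.2% the core and 5.59% the E-box. Of the 11 windows, 1 held any of these, a Bdnf window on the plus strand, chr3:116637608-116637857 in GRCr8, with the core in capitals beginning 35 bases before the start. It is shown because the cAMP response element is the site bound by CREB, the activity-dependent regulator of Bdnf whose gene is listed below among the pathway genes.

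Bdnf window: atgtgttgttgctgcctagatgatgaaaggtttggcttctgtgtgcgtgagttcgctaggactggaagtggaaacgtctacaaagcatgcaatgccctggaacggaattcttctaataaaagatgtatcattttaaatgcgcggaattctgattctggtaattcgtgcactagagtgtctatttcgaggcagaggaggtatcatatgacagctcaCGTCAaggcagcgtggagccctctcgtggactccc

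Levels are in FPKM, a fragment count divided by gene length and by library size, so they can be compared between genes. The libraries held an estimated 13000000 to 17230000 fragments, from the steps between low values of short loci, so a gene of 1 kb with 3 fragments would have an FPKM of 0.174 to 0.231. Counting intervals below are exact 95% Poisson intervals for 1 kb of gene from these estimates. They are narrower for a longer transcript and cover counting error only. The mitochondrial genome took 26.6%, 14.4% and 20.9% of all FPKM in rats 12, 24-4 and 33. Since FPKM depends on the whole library, a larger mitochondrial part can lower the other values, by an amount that these shares do not give. Markers of the labelled tissue were present in each rat, with the summed FPKM of 6 glutamatergic neuron genes at 1457, 1582 and 812 in the same order. The libraries also differed in choroid plexus RNA, whose 5 markers summed to 3314, 128 and 13098 FPKM.

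Among the ligands, Bdnf had the highest mean, and Ntf3 and Ntf4 were below 1 FPKM in every rat. Bdnf (ENSRNOG00000047466, Rnor_6.0 chromosome 3, 100768637 to 100819210, plus strand), the main neurotrophin of adult cortex, had 2.74, 1.15 and 3.92 FPKM in rats 12, 24-4 and 33, a mean of 2.61 ± 1.39 (SD, n = 3 rats, here and below). Rat 24-4 was lowest, and rat 33 was 3.40 times as high. The counting intervals for 1 kb were 1.98 to 3.71, 0.704 to 1.79 and 2.92 to 5.16 FPKM, so rat 24-4 lay apart from the others by more than counting error. Such differences between animals cannot tell fewer cells of a type from less RNA per cell, here or below.

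Ntf3 (ENSRNOG00000019716, chromosome 4, 158636884 to 158705886, minus strand), which encodes neurotrophin-3, had 0.350, 0.873 and 0.537 FPKM in rats 12, 24-4 and 33 (0.587 ± 0.265). Here rat 24-4, the lowest for Bdnf, was the highest. The 1 kb counting intervals were 0.120 to 0.795, 0.489 to 1.44 and 0.216 to 1.11, and all 3 overlapped. Ntf4 (ENSRNOG00000020783, chromosome 1, 101405314 to 101408145, plus strand), which encodes neurotrophin-4, had 0.295, 0.175 and 0.637 FPKM (0.369 ± 0.240). Its locus spans 2832 bases, so its values rest on at most 12.8, 8.53 and 23.5 fragments in the same rats. The intervals of rats 24-4 and 33 overlapped for 1 kb of gene (0.0362 to 0.510 and 0.280 to 1.24) and not if the whole locus were exon (0.0779 to 0.337 and 0.406 to 0.952). A difference in Ntf4 between rats was thus not clearly detectable at this depth.

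Bdnf made up 81.0%, 52.4% and 77.0% of the summed FPKM of the 3 ligand genes in rats 12, 24-4 and 33. In rat 24-4, where Bdnf was low and Ntf3 high, Ntf3 reached 39.6% of the sum, against 10.3% and 10.5% in rats 12 and 33. The sum itself was 3.39, 2.20 and 5.10 FPKM. Rat 24-4 thus had the lowest ligand sum and the most even division between Bdnf and Ntf3.

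The Trk receptor genes were far above their ligands in every animal. Ntrk2 (ENSRNOG00000018839, chromosome 17, 5933729 to 6244676, minus strand) had 45.5, 43.1 and 67.5 FPKM in rats 12, 24-4 and 33 (52.0 ± 13.5). Rats 12 and 24-4 were close to each other, and rat 33 was 1.57 times the lowest. Its mean was above that of 89.2% of the 13754 genes that averaged 1 FPKM or more, which are the genes tested here. Ntrk3 (ENSRNOG00000018674, chromosome 1, 139890560 to 140262503, minus strand) had 9.22, 9.50 and 7.88 FPKM (8.87 ± 0.866), near the middle of the tested genes, with 44.8% below it. Its highest and lowest rats differed by 1.21 times, the smallest ratio among the 7 genes. Rat 24-4 was highest for Ntrk3 as deposited, but rat 12 was highest once the mitochondrial genome was left out and the rest rescaled. Full-length and truncated forms of both receptors are summed in these values.

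Ngfr was the least even of the 7 genes and Sort1 the most abundant. Ngfr (ENSRNOG00000005392, chromosome 10, 83389847 to 83408061, minus strand), which encodes the p75 receptor, had 0.220, 0.641 and 1.35 FPKM in rats 12, 24-4 and 33 (0.735 ± 0.568). Rat 33 was 6.11 times as high as rat 12, and the 1 kb counting intervals of those rats, 0.790 to 2.14 and 0.0513 to 0.608, did not overlap. Sort1 (ENSRNOG00000031814, chromosome 2, 211078334 to 211156312, plus strand), which encodes sortilin, also a sorting receptor for lysosomal proteins, had 175, 161 and 134 FPKM (157 ± 21.1). Rat 12 was highest and rat 33 lowest, the reverse of Ngfr. Its mean ranked 355 among the tested genes, above 97.4% of them. No other listed locus overlapped any of the 7 on either strand.

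**Figure D1:**
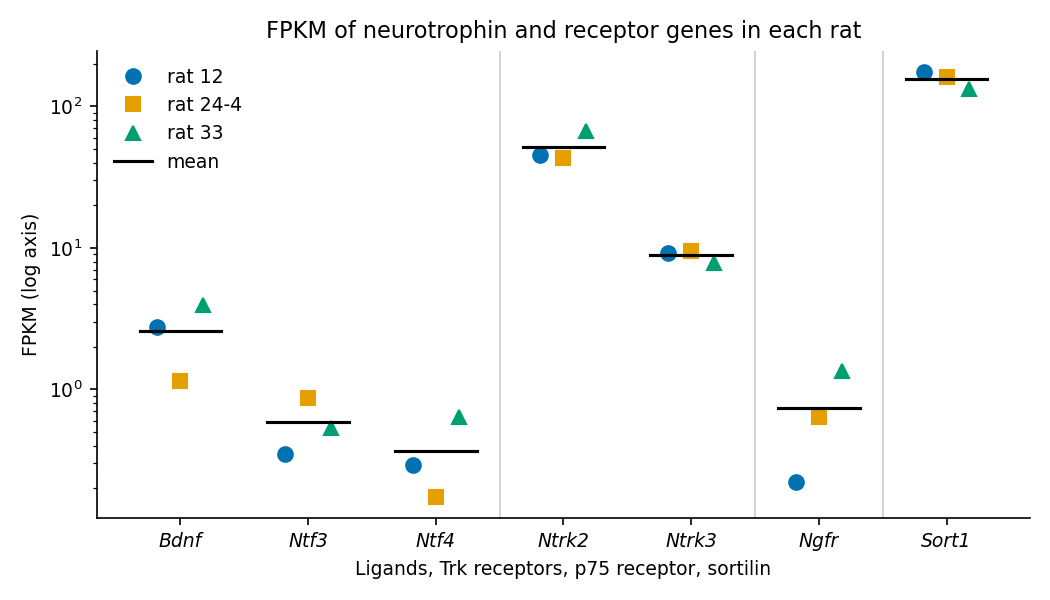
FPKM (log axis) of the 7 genes in rats 12, 24-4 and 33 (points) with the mean of the 3 rats (lines), ordered as ligands, Trk receptors, p75 receptor and sortilin. Sort1, Ntrk2 and Ntrk3 lie above every ligand value, and rat 33 is highest for Bdnf, Ntf4, Ntrk2 and Ngfr.

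By mean level the order was Sort1, Ntrk2, Ntrk3, Bdnf, Ngfr, Ntf3 and Ntf4. Neighbouring ranges did not overlap from Sort1 down to Bdnf. Below it, Bdnf and Ngfr overlapped in range, though Bdnf was higher in 3 of 3 rats. Ngfr exceeded Ntf3 in 1 of 3 rats and Ntf3 exceeded Ntf4 in 2 of 3, so the last 3 places were not separated by more than the spread between animals.

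Within each animal, both Trk receptor genes exceeded the ligand gene paired with them, and Ntrk2 exceeded Ntrk3, while Ngfr was below Bdnf. The ratio of Ntrk2 to Bdnf was 16.6, 37.4 and 17.2 in rats 12, 24-4 and 33, and that of Ntrk3 to Ntf3 was 26.3, 10.9 and 14.7. Rat 24-4 thus had the highest receptor-to-ligand ratio of the first pair and the lowest of the second. Ntrk2 exceeded Ntrk3 by 4.93, 4.54 and 8.57 times. The summed Trk receptor genes were 16.1, 23.9 and 14.8 times the summed ligand genes.

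On the log2(FPKM + 1) scale, where differences between weakly expressed genes come out too small, Ntrk3 minus Ntf3 was 2.65 ± 0.24 and Ntrk2 minus Ntrk3 was 2.40 ± 0.48. Bdnf minus Ntf3 was 1.12 ± 0.80, with 1.47, 0.20 and 1.68 in rats 12, 24-4 and 33, so rat 24-4 had nearly equal values of both. Bdnf minus Ntf4 was 1.33 ± 0.40. The proneurotrophin receptor pair was very unequal, with Sort1 minus Ngfr at 6.55 ± 0.67, and Sort1 was 796, 251 and 99.4 times Ngfr in rats 12, 24-4 and 33. Ntrk2 minus Ngfr was 4.96 ± 0.26, the steadiest difference with Ngfr on this scale, while Ntrk3 minus Ngfr was 2.55 ± 0.58. As a ratio it was not steady, since Ntrk2 was 207, 67.3 and 50.2 times Ngfr in rats 12, 24-4 and 33. Sort1 minus Ntrk2 was 1.59 ± 0.53, with rat 33 lowest at 0.97. Ntf3 minus Ntf4 changed sign between rats (0.06, 0.67 and -0.09), with a mean of 0.21 ± 0.40.

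The sign was shared by 3 of 3 rats in 9 of the 10 pairs compared. For those 9 the two-sided exact sign-flip permutation test gave p = 0.25, the smallest that 3 animals allow, and 0.278 after Benjamini-Hochberg adjustment over the 10 pairs. For Ntf3 minus Ntf4 the exact p was 0.75. No pair could therefore pass a threshold of 0.05.

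**Figure D2:**
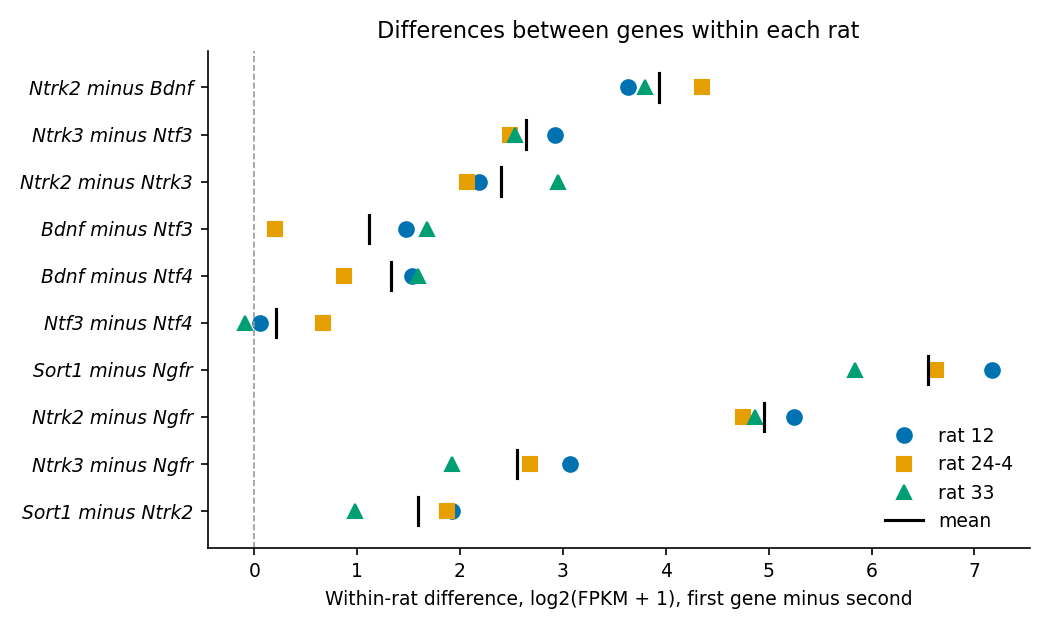
Within-rat differences of log2(FPKM + 1), first gene minus second, for 10 pairs in rats 12, 24-4 and 33 (points) with their means (lines). Each pair except Ntf3 minus Ntf4 lies on the same side of 0 in all 3 rats.

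Of the 7 genes, 4 had a mean FPKM of at least 1 and were tested for variability between the rats: Bdnf, Ntrk2, Ntrk3 and Sort1. The limma test asked whether the variance of a gene over the 3 rats exceeded that of genes of its level, and none of the 4 was called at a Benjamini-Hochberg adjusted p under 0.05. In the background, 14 of 13754 genes (0.102%) were called. On simulated data the test missed the smallest seeded shifts of 1 rat, so a gene that was not called was not shown to be steady. Bdnf had the largest spread of the 4, with an SD of 0.61 on the log2 scale, larger than that of 86.2% of tested genes. Its variance was 2.30 times the prior variance at its level (limma adjusted p = 0.989). Ntrk2 had an SD of 0.35 and 0.872 times the prior variance (limma adjusted p = 0.993). Sort1 and Ntrk3 were steadier, with SDs of 0.20 and 0.13 and 0.233 and 0.130 times the prior variance (limma adjusted p = 0.993 and 0.998). Ntrk3 had a larger SD than 11.1% of tested genes.

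With a minimum mean FPKM of 0.1, which let all 7 genes into the test, Ngfr had 2.57 times the prior variance, Ntf4 0.922 times and Ntf3 0.707 times. The limma adjusted p was 0.991 for each. At this setting 0 of 17150 genes (0%) were called, and 903 had an unadjusted p under 0.05, so the result says little about Ngfr in particular.

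**Figure D3:**
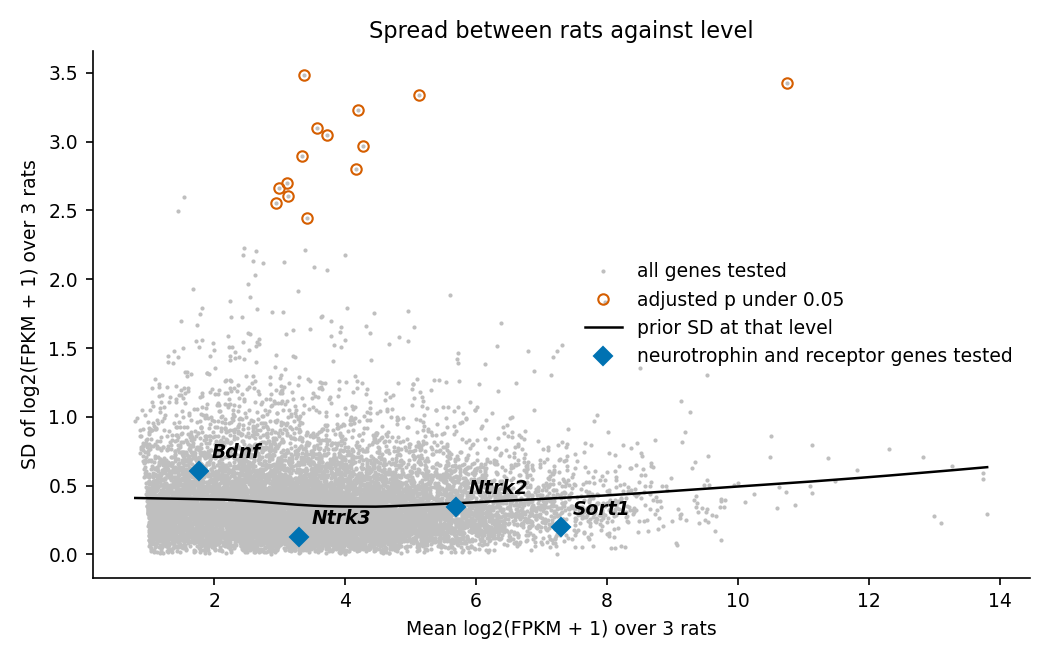
SD of log2(FPKM + 1) over the 3 rats against mean log2(FPKM + 1) for the 13754 tested genes (grey), with the 14 called genes (open circles), the prior SD (line) and the 4 tested genes of this system (diamonds). Bdnf lies above the line, Ntrk2 near it, and Sort1 and Ntrk3 below it.

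The rats with the highest values differed between the genes. Rat 33 was highest for Bdnf, Ntf4, Ntrk2 and Ngfr, 4 of 7 genes, where 42.0% of all tested genes had their highest value in rat 33. Rat 24-4 was highest for Ntf3 and, as deposited, Ntrk3, where the background was 34.2%, and rat 12 was highest for Sort1 alone, with a background of 23.8%. These shares are too close to the background, over so few genes, to be read as a result about the 7.

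Pathway genes were taken from 7 lists of 97 gene names, of which 93 were found and 82 were tested. By limma, 0 were called variable after adjustment, and 9 of 82 fell under 0.05 before it, as did 820 of the 13754 tested genes (5.96%). Of the other genes of the neurotrophin system, 6 of 7 were found, all but Sorl1. Sorcs1, a sortilin relative, had the highest mean (11.7 FPKM). Sort1 made up 84.9%, 85.9% and 85.9% of the summed FPKM of Sort1, Sorcs1, Sorcs2 and Sorcs3 in rats 12, 24-4 and 33. Sorl1 is not part of that sum.

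Proneurotrophins are processed by furin, proprotein convertases and, outside the cell, plasmin and matrix metalloproteinases. In that list all 13 genes were found, 9 were tested and none was called. Cpe, carboxypeptidase E, a sorting receptor that directs BDNF to regulated secretion, had the highest mean (684 FPKM), and Plg, plasminogen, the lowest above 0 (0.0855). Mmp7 was listed at 0 in all rats. Furin itself, named after its values were seen, had 11.1, 13.8 and 16.2 FPKM in rats 12, 24-4 and 33.

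Most adaptor genes downstream of the receptors had higher means than the ligand genes, as did most of all tested genes. Of all tested genes, 14.6% had a lower mean than Bdnf, the highest of the ligand genes. Among p75 coreceptors and adaptors, 11 of 12 gene names were found and tested, all but the name Bex3. They ran from Traf6 (3.82 FPKM), a ubiquitin ligase recruited by p75, to Arhgdia (205). Lingo1, a coreceptor of p75 named after its values were seen, had 114, 123 and 55.3 FPKM in rats 12, 24-4 and 33, far above Ngfr. Among Trk adaptors and early signalling genes, 17 of 18 were found and tested, from Irs1 (2.09) to the phosphatase gene Ptpn11 (77.3). None of either list was called.

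**Figure D4:**
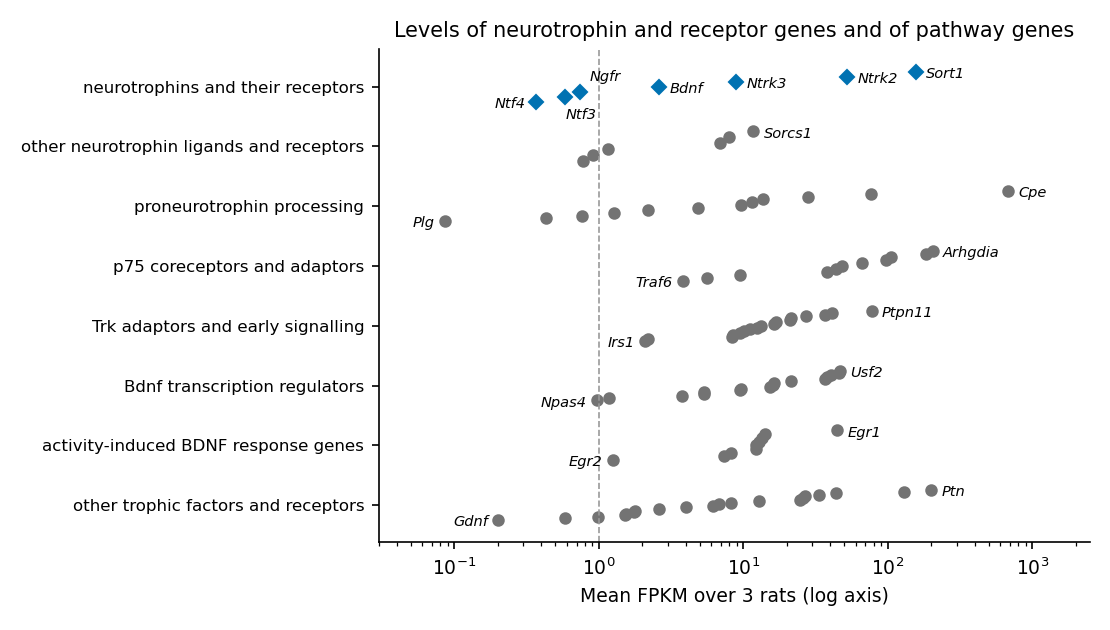
Mean FPKM over the 3 rats (log axis) of the 7 neurotrophin and receptor genes (diamonds) and of the pathway genes above 0 (circles), with the highest of each pathway list named and, from the third row down, the lowest. The dashed line marks the mean FPKM of 1 needed for testing; Ngfr, Ntf3 and Ntf4 lie below it.

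Genes known to regulate Bdnf were most often highest in rat 12 (8 of 15 tested, against 23.8% of all tested genes), and so were all 9 tested genes induced by activity, while Bdnf was highest in rat 33. Of the regulators, all 16 were found, 15 were tested and none was called. They ran from Npas4 (0.963 FPKM), an activity-dependent transcription factor, to Usf2 (46.8). Creb1, which encodes CREB, named here for the motif above, had 7.22, 3.78 and 4.90 FPKM in rats 12, 24-4 and 33, highest in rat 12 and, like Bdnf, lowest in rat 24-4. Mef2c, another activity-dependent regulator, named after its values were seen, had 41.0, 18.7 and 3.99 FPKM, with a limma adjusted p of 0.202.

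The activity-induced list had 10 of 11 genes found and 9 tested, from Egr2 (1.25 FPKM) to Egr1 (44.7), both immediate early transcription factors. All 9 tested were highest in rat 12, where 23.8% of all tested genes were. They were also highest there with mitochondrial genes removed (35.8% of all tested genes) and with equal medians (26.8%). Their median deviation from the mean of the rats was 0.71, -0.12 and -0.57 in rats 12, 24-4 and 33, against -0.06, 0.01 and 0.07 for all tested genes. None was called by limma, and 4 of 9 had an unadjusted p under 0.05, where 5.96% of all tested genes did. Bdnf deviated by 0.13, -0.66 and 0.53 in the same rats, so it was highest where Egr1 was lowest (81.8, 34.2 and 18.2 FPKM).

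Other trophic factors and receptors included many genes highest in rat 33, as Bdnf, Ntrk2 and Ngfr were. All 20 were found and none was called, from Gdnf (0.201 FPKM), a factor for dopaminergic and motor neurons, to Ptn, the heparin-binding factor pleiotrophin (200). Rat 33 was highest for 11 of the 17 tested, against 42.0% of all tested genes, and for 9 of 17 with each rat scaled to the same median, where the background was 33.6%. Mdk, midkine, a relative of Ptn named after its values were seen, had 61.3, 29.7 and 299 FPKM in rats 12, 24-4 and 33 (limma adjusted p = 0.213). Its order of rats was that of Bdnf.

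Marker sums of several cell types were highest in rat 33, but not those of all. The 3 endothelial markers found summed to 48.4, 74.7 and 60.7 FPKM in rats 12, 24-4 and 33. The 4 oligodendrocyte precursor markers summed to 40.2, 70.9 and 61.2 FPKM. These sums were highest in rat 24-4, though 2 of the 3 tested genes of each list were highest in rat 33. The 4 markers of meninges and fibroblasts summed to 27.3, 27.2 and 91.0 FPKM in rats 12, 24-4 and 33, and the 5 mural cell markers to 99.9, 79.5 and 185. Rat 33 was highest for both, as for Ngfr, Bdnf and Ntrk2. The 6 astrocyte markers, led by Aldoc, summed to 545, 636 and 731 FPKM. Of these, 3 were highest in rat 33 and 3, Aldoc among them, in rat 24-4. The sum of the 4 reactive astrocyte markers found, led by Gfap, was 335, 1076 and 1993 FPKM. Both sums are given beside Ntrk2, which astrocytes express. They were lowest in rat 12, unlike Ntrk2, which had 45.5 and 43.1 FPKM in rats 12 and 24-4. The 5 microglial markers summed to 66.0, 103 and 170 FPKM and the 6 oligodendrocyte markers to 5323, 6965 and 12114. The 3 markers of the dentate gyrus, a hippocampal region rich in Bdnf, summed to 4.18, 11.2 and 21.0 FPKM, led by C1ql2 at 0.859, 8.79 and 12.7 FPKM. Its other markers, named after their values were seen, were lowest in rat 24-4 and highest in rat 33, as Bdnf was. Prox1 had 2.84, 2.35 and 6.86 FPKM and Dsp 0.476, 0.0848 and 1.38 in rats 12, 24-4 and 33.

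Most neuronal markers ran the other way, with 6 GABAergic genes at 471, 518 and 264 FPKM and rat 33 lowest, as for the glutamatergic sum given above. The exception was the glutamatergic gene Neurod6, named after its values were seen, which was lowest in rat 12. It had 34.9, 47.0 and 43.3 FPKM in rats 12, 24-4 and 33. Sort1 and Ntrk3 were also lowest in rat 33, and Bdnf, made mainly by excitatory neurons, was not. The choroid plexus markers, led by Ttr, were highest in rat 33 and lowest in rat 24-4, the order of Bdnf. Ntf4 and Ntrk2 had this order too. Ntrk2 was close in rats 12 and 24-4 (45.5 and 43.1 FPKM), however, and differences in Ntf4 were not clearly detectable. By limma, 4 of the 5 choroid plexus markers were called variable, against 0.102% of all tested genes. No gene at all was called under 5 of the 10 alternative settings. Cholinergic neuron markers, of neurons in which Ngfr is abundant, were near 0, with Chat at 0.234 FPKM on average and a sum over 2 genes of 0.647, 0.387 and 1.10. The part of these cell types in the values of the 7 genes was not tested.

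**Figure D5:**
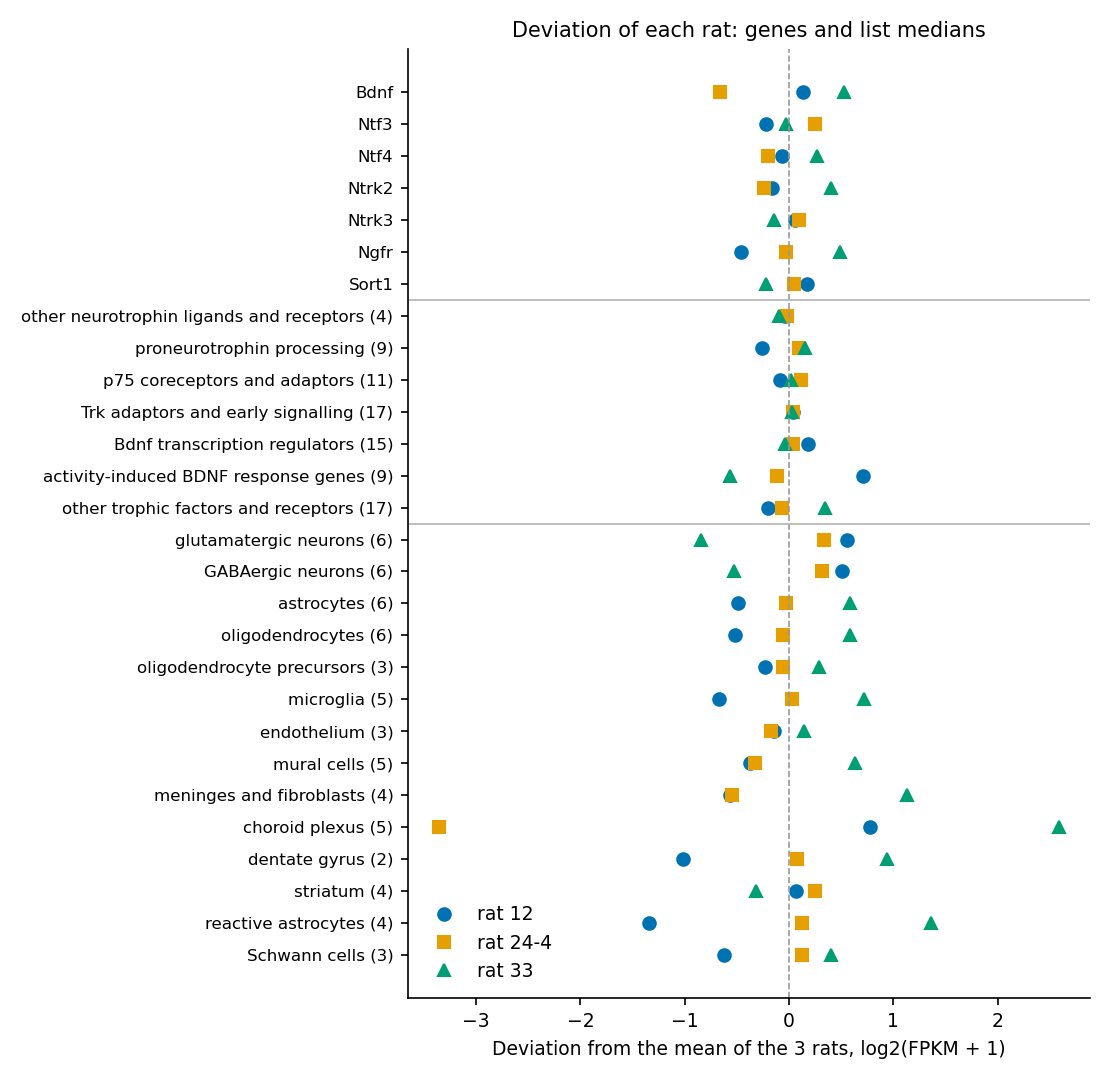
Deviation of each rat from the mean of the 3 rats in log2(FPKM + 1), for the 7 genes (top), and the median over tested genes of 7 pathway lists (middle) and of marker lists (bottom; number of tested genes in brackets). Rat 33 is to the right for Bdnf, Ntrk2 and Ngfr and to the left for activity-induced and neuronal genes.

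For the 4 tested genes, the nearest profiles over the 3 rats were sought among 144 tested genes of the pathway and marker lists, by the Euclidean distance between deviations in log2(FPKM + 1). Nearest to Bdnf were the mural cell genes Rgs5 (0.14) and Acta2 (0.25) and then Ptn (0.26). Rgs5 had 48.2, 28.3 and 72.6 FPKM in rats 12, 24-4 and 33. Nearest to Ntrk2 were Ret (0.077), Ripk2 (0.13) and Nfkb1 (0.16). Nearest to Ntrk3 were Aldoc (0.046) and Shc3 (0.14), and nearest to Sort1 were Dusp6 (0.023) and Shc3 (0.038). On this scale differences in weakly expressed genes come out too small, so near profiles need not share ratios. The highest rat was 2.26 times the lowest for Ret and 1.57 times for Ntrk2, and 2.56 for Rgs5 and 3.40 for Bdnf. With 3 points such likeness is common, since 88 of the 13753 other tested genes were at least as near to Bdnf as Rgs5, and 138, 90 and 16 were as near as the first gene named for Ntrk2, Ntrk3 and Sort1.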

How the data were processed

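RNA from the motor cortex of 3 rats was sequenced, 1 library per animal. The deposited values are FPKM. The authors made them with a script from normalized counts of fragments per gene, as the design text of the series says. HISAT2 (2.0.4), StringTie (1.3.0) and the build Rnor_6.0 stand in the submitters' processing notes. Which normalization was used, and whether strand was, is not stated there. FPKM depends on the whole library, and a 0 can be a failed estimate.

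Values were analysed as log2(FPKM + 1). Variability was tested in 13754 genes that averaged 1 FPKM or more, with limma 3.58.1 (R 4.3.3): an intercept per gene, a trended robust prior, the residual over the prior variance against the F distribution, one-sided, Benjamini-Hochberg adjusted at 0.05. The procedure was tested on simulated data, where large shifts of 1 rat were recovered and the smallest were not. Within-rat differences used an exact sign-flip test. Fragment totals were the smallest at which values of loci up to 400 bp came out whole, within 0.02, for 93.1% to 93.4% of 622 to 663 values. The remaining steps ran in Python 3.11.15 (scipy 1.17.1, pandas 2.3.3, numpy 2.4.6).

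The lists and the pairs, like the genes, were chosen with earlier results of these data known. Named were the 7 genes, the extremes of each pathway list, the top marker where a list is described, and 3 nearest profiles for each tested gene; exceptions are stated, and a few genes under this rule are not reported here. A name in more than 1 row was read from the row with the higher mean. Alternatives were other pseudocounts, filters, scalings and priors, and leaving out each rat.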

Additional observations from a re-analysis of the deposited data

How the results depend on the processing

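The number of genes variable between rats by limma, 14 here, depended on the settings: 23 with a pseudocount of 0.1, 54 with each rat scaled to the same median, and 0 with a mean FPKM of at least 0.1, with no filter, with a prior that is not robust, or after removing mitochondrial genes and rescaling (903, 864, 733 and 699 at an unadjusted p under 0.05). Without 1 rat it ran from 0 (rat 24-4 left out, 655 unadjusted) to 104 (rat 12 left out), with 64 without rat 33; the cause was not tested. Bdnf, Ntrk2, Ntrk3 and Sort1 were called under none of these 10 alternatives; the lowest limma adjusted p was 0.904, for Bdnf. Of 70 alternative values of the 10 pair differences, 69 kept their sign. Only Ntf3 minus Ntf4 could have changed sign, since in every other pair all rats shared a sign that these settings cannot reverse. The count is therefore no support for those other pairs. With 1 rat left out, Ntf3 minus Ntf4 ran from -0.015 (without rat 24-4) to 0.37 (without rat 33), and it was 0.60 with a pseudocount of 0.1. Rescaling without the mitochondrial genome raised the median of all tested genes by 0.31 (log2), and with it the mean of every gene described here. The means of Ntrk2, Ntrk3 and Sort1 moved to 65.6, 11.2 and 199 FPKM. Those of Bdnf, Ntf3, Ntf4 and Ngfr moved to 3.32, 0.728, 0.465 and 0.908 FPKM. No paired analysis was possible because there is 1 group, so no samples pair across groups; the pair differences compare genes within a rat. Depth limits Ntf4 most, at 3.01 to 8.28 fragments per kb, then Ngfr and Ntf3, at 3.37 to 17.5 and 5.37 to 15.0.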

Other observations

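Mmp9, a metalloproteinase that can cleave proBDNF, named after its values were seen, had 1.56, 4.55 and 0.474 FPKM in rats 12, 24-4 and 33. It was highest in rat 24-4, as Ntf3 was, and was not called variable (limma adjusted p = 0.744).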
